A study of Mus musculus with 5 samples.

Results

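The caveolin and cavin genes were read in E10.5 mouse embryo hearts, on 2 arrays of hearts whose genotype is labelled KO and 3 arrays of hearts labelled Control. Caveolins are the hairpin membrane proteins of caveolae, the small flask-shaped pits of the plasma membrane, and cavins are the cytosolic coat proteins that bind them. The 8 genes were chosen by name: the 3 caveolins Cav1, Cav2 and Cav3, the 4 cavins Cavin1 (Ptrf), Cavin2 (Sdpr), Cavin3 (Prkcdbp) and Cavin4 (Murc), and Ehd2, whose protein sits at the neck of the pit. They are 8 of the 23279 genes with a symbol on the array. The rule kept the brightest probe set of a gene, but each of these genes had 1 set, so no measured value decided which set stood for it. All 8 passed the filter on dim genes (a mean log2 level of at least 4.44) and were among the 13967 genes tested.

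Both groups share the tissue and stage, and the labels record no treatment. The title of the series names Lrrfip2 and the response to low oxygen. The allele, the strain, the way the gene was removed, whether a sample was 1 heart or a pool, and whether the controls were wild type or heterozygous are not recorded in the sources at hand. The p-values below therefore judge differences against the spread between these 5 samples. In limma that spread is moderated by the other genes tested. Lrrfip2, the gene of the title, had log2 levels of 6.36 and 6.22 on the knockout arrays, against 7.33, 8.07 and 8.08 on control arrays 1, 2 and 3. The knockout values were the lower ones with no overlap, a log2 difference of -1.54 ± 0.28 (SE).

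Caveolae store membrane that cells can spend when stretched, and they gather receptors, channels and signalling enzymes. Caveolin-1 and caveolin-2 form mixed oligomers in endothelium, smooth muscle, fibroblasts and mesothelium, and caveolin-2 depends on caveolin-1 to reach the cell surface. Caveolin-3 is the muscle form, found in heart and skeletal muscle, where mutations in its human gene cause muscle disease. Cavin-1 is needed for caveolae in all tissues studied, cavin-2 and cavin-3 join it in a tissue-dependent manner, and cavin-4 is largely restricted to muscle. Ehd2 is an ATPase that forms rings at the neck of the pit and holds it at the surface.

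The muscle caveolin Cav3 was 2.15-fold lower in the knockout hearts, the widest gap of the 8 whichever array was left out save control array 1 or 2, without which that of Cav1 was wider. Cav1 was 1.99-fold higher and Cavin3 1.31-fold lower. The place of Cav1 rested on control array 3: without it the log2 difference was 0.43 for Cav1 and -0.49 for Cavin3. None of the 8 passed an adjusted p of 0.05 in limma, and 0% of the 13967 genes tested passed it. Of the 8 genes, 1, Cav3, had an unadjusted p under 0.05. That unadjusted rule held for 8.78% of all genes, with 3.29% of all genes higher and 5.49% lower in the knockout.

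The bases just before the start sites of the genes whose values the results turn on are shown here, from the RefSeq promoter table in build GRCm38.p6. The table held 9 windows for 7 of the 8 genes and none for Cavin3. Each run is the 250 bases before an annotated start, 5′ to 3′ on the strand of the gene, which is the plus strand for all 5. Cav1 has 2 annotated starts. Capitals mark the E-box letters CANNTG, the kind of site bound by helix-loop-helix factors, and the letters ACGTG, the core of a hypoxia response element, searched on both strands.
Cav3 (chr6:112459255-112459504): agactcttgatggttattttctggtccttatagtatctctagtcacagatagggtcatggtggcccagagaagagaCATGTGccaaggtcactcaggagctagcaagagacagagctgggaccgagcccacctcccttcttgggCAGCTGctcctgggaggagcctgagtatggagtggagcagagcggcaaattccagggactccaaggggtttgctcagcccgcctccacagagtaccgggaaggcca
Cav1, start 1 (chr6:17306085-17306334): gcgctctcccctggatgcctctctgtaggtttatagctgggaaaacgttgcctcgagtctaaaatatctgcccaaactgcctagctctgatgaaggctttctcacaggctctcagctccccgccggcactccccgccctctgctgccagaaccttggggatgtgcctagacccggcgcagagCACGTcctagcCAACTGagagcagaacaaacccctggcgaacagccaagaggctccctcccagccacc
Cav1, start 2 (chr6:17307390-17307639): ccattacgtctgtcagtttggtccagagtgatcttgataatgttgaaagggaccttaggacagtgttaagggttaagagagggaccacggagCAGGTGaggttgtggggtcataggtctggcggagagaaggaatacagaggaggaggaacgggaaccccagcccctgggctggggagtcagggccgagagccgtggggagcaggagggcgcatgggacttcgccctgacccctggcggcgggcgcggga
Cav2 (chr6:17280935-17281184): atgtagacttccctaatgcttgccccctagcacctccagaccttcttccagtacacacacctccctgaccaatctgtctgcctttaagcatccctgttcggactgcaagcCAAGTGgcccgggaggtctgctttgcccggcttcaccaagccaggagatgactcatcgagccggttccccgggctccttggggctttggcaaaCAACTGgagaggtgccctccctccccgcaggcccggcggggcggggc
Cavin4 (chr4:48663264-48663513): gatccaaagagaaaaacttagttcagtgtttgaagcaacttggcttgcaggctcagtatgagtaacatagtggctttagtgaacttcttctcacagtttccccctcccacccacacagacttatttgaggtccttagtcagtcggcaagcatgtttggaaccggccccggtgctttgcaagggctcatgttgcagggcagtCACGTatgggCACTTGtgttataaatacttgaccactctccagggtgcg

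The Cav3 window held 2 E-boxes, CATGTG beginning 174 bases and CAGCTG beginning 106 bases before the start, and no ACGTG on either strand. The first Cav1 window held 1 match to the hypoxia core, read as CACGT on the strand shown and beginning 68 bases before the start, and an E-box, CAACTG, beginning 57 bases before it. The second Cav1 window held an E-box, CAGGTG, and no hypoxia core. Cav2 had E-boxes, CAAGTG and CAACTG, beginning 140 and 47 bases before its start. Cavin4 had a hypoxia core beginning 49 bases before its start and an E-box, CACTTG, beginning 39 bases before it. The windows of Cavin1, Cavin2 and Ehd2 had no ACGTG, and of these 3 genes Ehd2 alone had an E-box. No match shown overlaps another. Among the 32851 windows of the same length in the table, chromosome 18 left out, 16.6% held ACGTG and 66.2% held an E-box. A GC box, GGGCGG on either strand, lay in the first Cav1 window and in those of Cav2, Cavin1 and Ehd2, against 32.7% of all windows. A CArG box, the site of serum response factor, lay in none of the 9 windows and in 1.47% of all. These matches describe the letters, not bound sites.

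Cav3 (Entrez gene 12391, on chromosome 6 in GRCm38.p6) had log2 levels of 5.64 and 5.92 on knockout arrays 1 and 2, against 7.10, 6.97 and 6.59 on control arrays 1, 2 and 3. Both knockout arrays lay below all 3 controls, and the gap between the groups was wider than the range of either. The means were 5.78 ± 0.20 (SD, n = 2) in knockout hearts and 6.88 ± 0.26 (SD, n = 3) in control hearts. The log2 difference was -1.11 ± 0.19 (SE), with a 95% interval of -1.64 to -0.57. In limma the unadjusted p was 0.00456 and the adjusted p over all genes was 0.355. In the order of differences over the 13967 genes, Cav3 was number 11 from the lowest and Lrrfip2 number 3. The Cav3 difference ranged from -1.25 to -0.96 as each array was left out.

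Cav1 (Entrez gene 12389, chromosome 6), the main caveolin outside striated muscle, had log2 levels of 7.56 and 7.39 on the knockout arrays. Its control levels were 7.20, 6.90 and 5.36. Both knockout arrays were above all controls, but control array 3 stood far below the other controls, and its distance from control 2 was larger than that between control 2 and the higher knockout array. The means were 7.48 ± 0.12 (SD, n = 2) in knockout hearts and 6.48 ± 0.99 (SD, n = 3) in control hearts. Knockout minus control came to 0.996 ± 0.64 (SE) on the log2 scale, with a 95% interval of -0.76 to 2.75 and an adjusted p in limma of 0.570. Without control replicate 3 the difference was 0.43. The range of the Cav1 controls, 1.84 on the log2 scale, was wider than that of 99.9% of the genes tested.

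Cav2 (Entrez gene 12390), also on chromosome 6 and the partner of Cav1 in mixed oligomers, did not share that pattern. Its log2 levels were 5.62 and 5.50 on the knockout arrays, against 5.76, 5.56 and 5.62 on the control arrays. The groups overlapped and control array 3 was in the middle of its group. This made a log2 difference of -0.09 ± 0.08 (SE), with a 95% interval of -0.31 to 0.13. The Cav1 minus Cav2 log ratio, set to an average of 0 in the controls, was 1.11 and 1.06 on the knockout arrays, against 0.60, 0.50 and -1.10 on the control arrays. Its exact permutation p over the 10 splits of the arrays was 0.3 (two-sided), with 0.1 the smallest possible.

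**Figure D1:**
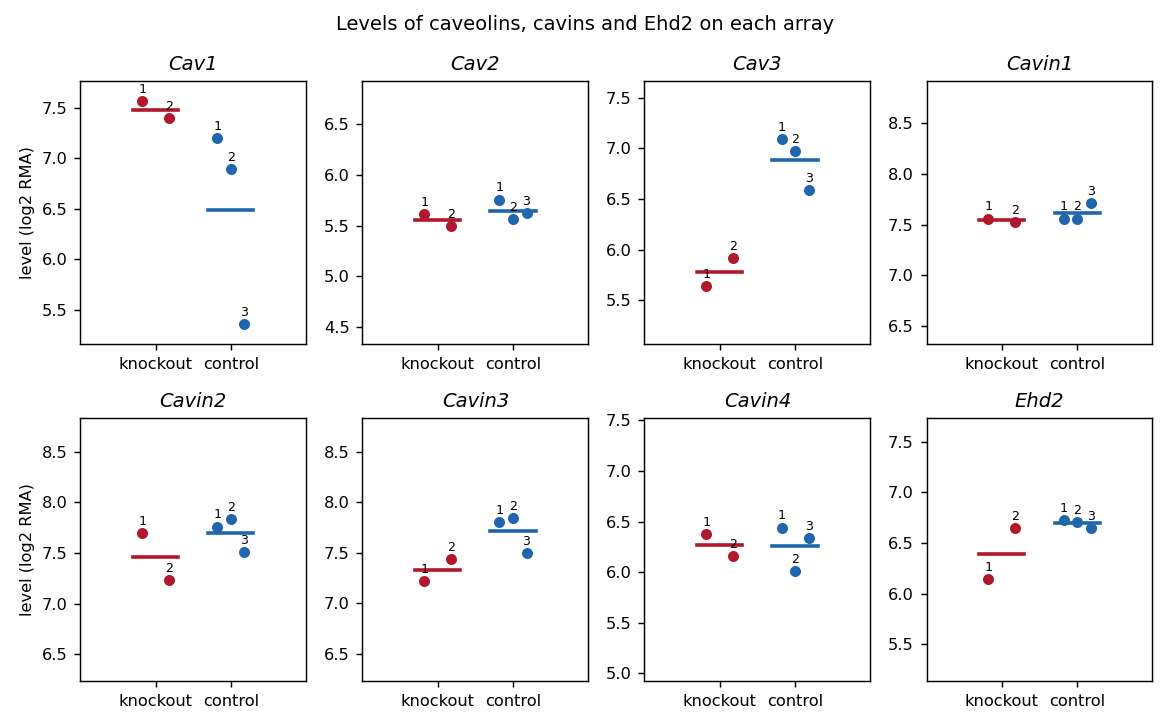
Levels (log2 RMA) of the 8 genes on the 2 knockout arrays (red, left) and the 3 control arrays (blue, right), with array numbers beside the points and lines at the group means. Every panel spans the same number of log2 units: Cav3 is lower on both knockout arrays, the Cav1 control of array 3 lies at 5.36 apart from the others, and Cavin1 shows almost no spread.

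Of the 4 cavins, Cavin3 differed most. Cavin3 (Entrez gene 109042, chromosome 7), which binds protein kinase C delta, had log2 levels of 7.22 and 7.44 on the knockout arrays, against 7.80, 7.85 and 7.50 on the control arrays. The groups did not overlap, but knockout array 2 and control array 3 were close to each other. Cavin3 thus differed by -0.39 ± 0.14 (SE) on the log2 scale, with a 95% interval of -0.78 to 0.01. In limma the unadjusted p was 0.0546 and the adjusted p was 0.570. It ranged from -0.50 to -0.28 as each array was left out.

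Cavin1 (Entrez gene 19285, chromosome 11), the coat gene that caveolae cannot form without, was level across the arrays. Its log2 level was 7.56 and 7.53 on the knockout arrays, against 7.56, 7.56 and 7.71 on the control arrays. Knockout array 1 and control arrays 1 and 2 held exactly the same deposited value. The log2 difference was -0.07 ± 0.06 (SE), and its 95% interval of -0.25 to 0.11 leaves out a change as large as that of Cav3.

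Cavin2 (Entrez gene 20324, chromosome 1), which helps to shape the curved membrane, had log2 levels of 7.70 and 7.23 on the knockout arrays, against 7.76, 7.84 and 7.51 on the control arrays. Knockout array 1 lay within the controls and knockout array 2 below them. Cavin2 differed by -0.24 ± 0.19 (SE) on the log2 scale, with an interval of -0.76 to 0.28. It was -0.47 without knockout replicate 1 and -0.01 without knockout replicate 2.

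Cavin4 (Entrez gene 68016, chromosome 4), the muscle cavin, gave no counterpart to the lower level of the muscle caveolin. Its log2 levels were 6.38 and 6.16 on the knockout arrays, against 6.44, 6.01 and 6.34 on the control arrays, and both knockout values were inside the control range. The log2 difference was 0.01 ± 0.16 (SE), with an interval of -0.44 to 0.46, so no direction can be given. The Cav3 minus Cavin4 log ratio, centred on the controls, was -1.37 and -0.86 on the knockout arrays, against 0.03, 0.34 and -0.37 on the control arrays. The exact permutation p (two-sided) of that ratio was 0.1, the smallest the 10 splits allow.

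Ehd2 (Entrez gene 259300, chromosome 7) was low on 1 knockout array only. Its log2 levels were 6.14 and 6.65 on the knockout arrays, against 6.73, 6.70 and 6.65 on the control arrays. Knockout array 2 and control array 3 held exactly the same value, and the controls spanned only 0.08. The log2 difference was -0.30 ± 0.17 (SE), with an interval of -0.76 to 0.16 and an adjusted p of 0.570 in limma. It was -0.05 without knockout replicate 1 and -0.55 without knockout replicate 2, where the adjusted p was 0.0408. In that fit the lone knockout array is assumed to vary like the controls.

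Counted as a list, 6 of the 8 genes were lower in the knockout hearts and 2 higher, beside 55.2% lower among all genes tested. The median log2 difference was -0.16, against -0.02 over all genes tested. The groups did not overlap for 3 of the 8 genes, Cav1, Cav3 and Cavin3, while they did not overlap for 21.3% of all genes. Of these, 2 were lower (13.1% of all genes) and 1 higher (8.18%). An exact tie between the groups counted as overlap, and ties between arrays touched 54.8% of the genes tested. The count over all genes was 2972 here, but 4389 after quantile normalization again and 4307 with each array centred on its median. The shift of the list on an array, which is the middle value of its genes' distances from their control means, was -0.04 and -0.12 on the knockout arrays, against 0.10, 0.05 and -0.12 on the control arrays. Knockout array 2 and control array 3 were alike on this measure, so the list as a whole did not separate the groups.

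**Figure D2:**
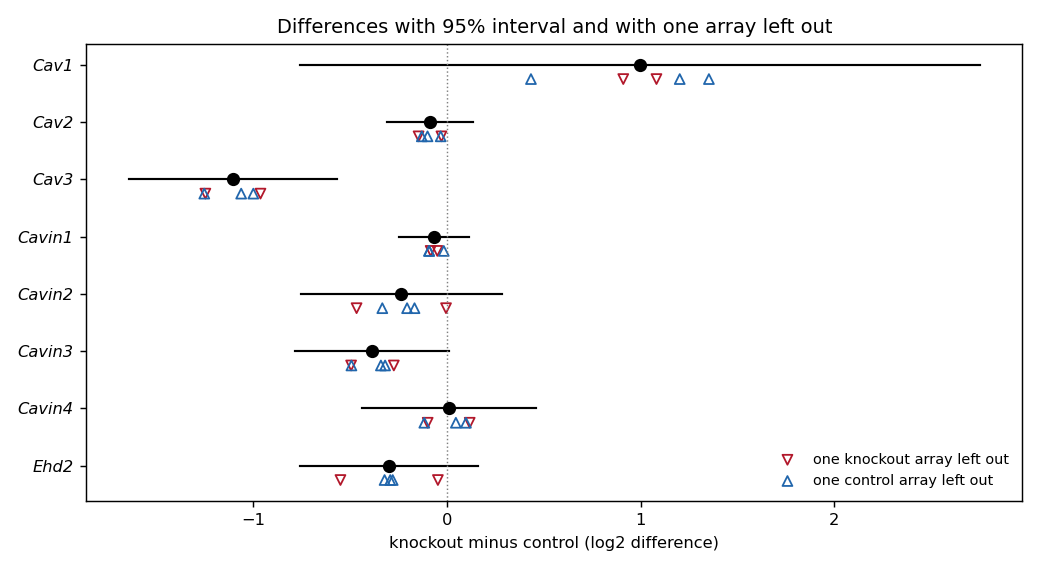
Knockout minus control log2 difference of each gene (black points) with its 95% interval from limma (lines), and the difference with 1 knockout array (red, pointing down) or 1 control array (blue, pointing up) left out. The interval of Cav3 alone, -1.64 to -0.57, leaves out 0, and the Cav1 point moves to 0.43 without control array 3.

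**Figure D3:**
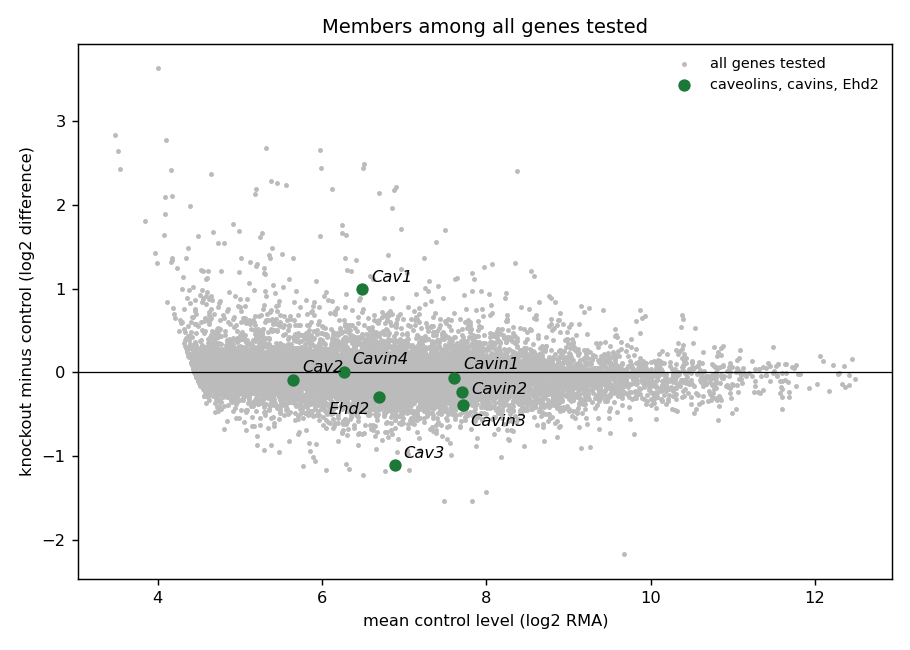
Knockout minus control log2 difference against the mean control level (log2 RMA) for the 13967 genes tested (grey) and the 8 caveolar genes (green). Cav3 at -1.11 lies at the lower edge of the cloud and Cav1 at 0.996 near the upper edge, while the others lie within it.

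Other proteins of the caveolar neck and coat showed small differences in both directions. Of the 14 listed, 11 were tested: the median log2 difference was 0.07, with 8 genes higher and 3 lower, and 0 had an unadjusted p under 0.05 in either direction in limma. Those with the smallest p were the actin cross-linker Flna (0.26 ± 0.14, SE), the Ehd2 relative Ehd1 (-0.35 ± 0.19), Nostrin, an adaptor of endothelial nitric oxide synthase (0.49 ± 0.29), and the membrane-cutting dynamin Dnm2 (-0.20 ± 0.13). Nostrin had log2 levels of 5.17 and 5.20 on the knockout arrays, against 4.96, 4.96 and 4.18 on the control arrays. As with Cav1, its lowest value was on control array 3. The F-BAR protein Pacsin2, which bends the caveolar neck, was at 0.04 ± 0.12 (SE), and its muscle relative Pacsin3 at 0.03 ± 0.03. Flotillins and relatives, which mark other membrane domains, had 6 of 9 tested genes higher, a median of 0.09 and 0 at an unadjusted p under 0.05. Among them Flot1 was at 0.19 ± 0.12 (SE), Flot2 at -0.21 ± 0.13, Prom1 at 0.26 ± 0.14 and Erlin2 at 0.19 ± 0.14.

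In muscle, caveolin-3 lies beside the dystrophin complex, the repair protein dysferlin and the Popeye proteins. Of 15 tested genes of this muscle membrane list, 9 were lower and 6 higher, with a median of -0.03. At an unadjusted p under 0.05, 2 were lower and 1 higher. Desmin, Des, the muscle intermediate filament, had log2 levels of 9.82 and 9.87 on the knockout arrays, against 10.32, 10.27 and 10.31 on the control arrays, a difference of -0.45 ± 0.04 (SE). Popdc3, a Popeye protein that binds cyclic AMP, was at -0.29 ± 0.07 (SE) and its relative Bves at -0.27 ± 0.11. Bin1, which bends the membrane of muscle T-tubules, went the other way at 0.68 ± 0.19 (SE). The dysferlin gene Dysf was at -0.02 ± 0.04 (SE), with the same value on both knockout arrays and 2 control arrays. Dmd, the dystrophin gene, had log2 levels of 8.41 and 6.97 on the knockout arrays, against 7.29, 7.29 and 7.17 on the control arrays, so the knockout arrays lay on either side of the controls. The shift of this list was 0.05 on knockout array 1 and -0.24 on knockout array 2, against -0.0048, 0 and 0.01 on the control arrays.

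The level of Cav3 was set beside that of heart muscle genes on the same arrays. Of 16 heart muscle markers, 11 were lower and 5 higher, with a median of -0.02, and 2 were lower at an unadjusted p under 0.05. These were the troponin gene Tnnc1 (-0.14 ± 0.03, SE) and the myosin heavy chain gene Myh6 (-0.22 ± 0.07). Nkx2-5 (-0.37) and Tnni1 (-0.20) did not pass that rule. The markers' mean log2 level was 11.40 and 11.20 on the knockout arrays, against 11.37, 11.38 and 11.37 on the control arrays, so the labelled tissue was marked by its own genes. Cav3 minus the mean of these markers, centred on the controls, was -1.28 and -0.79 on the knockout arrays, against 0.22, 0.08 and -0.29 on the control arrays. The difference of this ratio was -1.04, beside -1.11 for Cav3 alone. Its exact permutation p (two-sided) was 0.1, the smallest possible here. The marker mean varied little between arrays, so the ratio mostly follows Cav3 itself. With the cardiomyocyte level as a covariate, an alternative added after seeing the data, the Cav3 difference was -1.20 ± 0.23 (SE). Whether muscle content bears on the Cav3 gap was not tested beyond this fit. In such tissue samples fewer cells of a type and less RNA per cell cannot be told apart.

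Cav1 and the cavins are also carried by endothelium. Of 14 tested markers of endothelium and endocardium, 9 were higher, with a median of 0.21. At an unadjusted p under 0.05, 2 were higher, Sox17 (0.40 ± 0.10, SE) and the VEGF receptor Flt1 (0.64 ± 0.22), and 1 was lower, the endocardial factor Nfatc1 (-0.35 ± 0.12), while Egfl7 (0.42 ± 0.17) did not pass that rule. The shift was 0.36 on knockout array 1 and 0.04 on knockout array 2, against 0.08, 0.01 and -0.10 on the control arrays. Of 10 endothelial proteins known to gather in caveolae or to signal there, the median was -0.02, with 5 genes higher and 5 lower. The VEGF receptor Kdr (0.60 ± 0.14, SE) alone had an unadjusted p under 0.05. The next by p were Acvrl1 (0.27), Cd36 (0.46) and Eng (-0.23). Nitric oxide synthase Nos3, which caveolin-1 holds inactive, was at -0.18 ± 0.14 (SE), and Plvap, the protein of the caveolar diaphragm, at -0.22 ± 0.21. Cav1 minus the mean of the endothelial markers, centred on the controls, was 0.76 and 0.91 on the knockout arrays, against 0.64, 0.41 and -1.05 on the control arrays. This is a difference of 0.83, with an exact permutation p (two-sided) of 0.3. With the endothelial level as a covariate the Cav1 difference was 0.54 ± 0.78 (SE). Cavin3 minus the mean of the endothelial markers, centred on the controls, was -0.81 and -0.28 on the knockout arrays, against 0.01, 0.13 and -0.14 on the control arrays. The exact permutation p (two-sided) of that Cavin3 ratio was 0.1, the smallest the 10 splits allow. The ratio differed by -0.55, beside -0.39 for Cavin3 alone. With the endothelial level as a covariate the Cavin3 difference was -0.36 ± 0.20 (SE). For Cav2, whose own groups overlapped, the like ratio was -0.35 and -0.15 on the knockout arrays, against 0.04, -0.09 and 0.05 on the control arrays. Its exact permutation p (two-sided) was also 0.1, so such a value depends on the markers too.

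Other cells that carry caveolae, or that do not, varied from array to array. Genes listed for smooth muscle had 7 of 10 lower with a median of -0.14. Des, which is also in the muscle membrane list and so not particular to smooth muscle, was their only gene at an unadjusted p under 0.05. It came ahead of Cnn1 (-0.17), Myocd (-0.24) and Smtn (-0.26). Epicardial and mesothelial genes had 7 of 13 lower with a median of -0.03, but a shift of -0.26 on knockout array 1 and 0.34 on knockout array 2, against 0.03, 0.09 and -0.16 on the control arrays. At an unadjusted p under 0.05, 2 of them were higher, the keratin Krt19 (1.70 ± 0.33, SE) and Wt1 (0.30 ± 0.09), and 1 was lower, the uroplakin Upk1b (-0.38 ± 0.12). Aldh1a1 was at -0.50 ± 0.19 (SE). Cushion mesenchyme genes had 8 of 13 lower with a median of -0.11, and a shift of -0.51 and -0.0003 on the knockout arrays, against 0.10, 0.07 and -0.16 on the control arrays. Of them, 2 were lower at an unadjusted p under 0.05, Col2a1 (-0.62 ± 0.13, SE) and Prrx2 (-0.66 ± 0.20), ahead of Sox9 (-0.36) and Twist1 (-0.50). Targets and partners of YAP, a factor that responds to stretch, had 9 of 13 higher with a median of 0.08. At an unadjusted p under 0.05, 3 of them were higher, Ankrd1 (0.53 ± 0.11, SE), Ccn2 (0.98 ± 0.30) and Wwtr1 (0.31 ± 0.10), and none lower; Crim1 was at 0.08.

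Knockout array 2 stood apart from the rest by its endoderm transcripts. The mean log2 level of 16 liver and gut endoderm genes was 4.37 and 7.70 on the knockout arrays, against 4.50, 4.48 and 4.45 on the control arrays. All 13 tested were higher, with a median of 1.78, and 0 had an unadjusted p under 0.05. Their shift was -0.06 on knockout array 1 and 3.72 on knockout array 2, so the difference rests on the latter. A gene could also pass the dim filter through that array alone. Trf was at 5.42 and 9.37 on the knockout arrays, Ttr at 5.48 and 9.96, Rbp4 at 4.78 and 7.94 and Hnf4a at 4.80 and 6.34. White blood cell genes had 6 of 8 tested higher (median 0.14). Their shift was 0.36 on knockout array 1 and 0.04 on knockout array 2, against -0.06, -0.06 and 0.11 on the control arrays. The lowest in p were Cx3cr1 (0.17), Laptm5 (0.47), C1qa (-0.26) and Tyrobp (1.36). Tyrobp was at 7.65 on knockout array 1, but at 5.09 on knockout array 2 and on control arrays 2 and 3. Red cell genes were lower for 8 of 8 (median -0.26). Their shift was -0.34 and -0.18 on the knockout arrays, against -0.04, -0.42 and 0.51 on control arrays 1, 2 and 3, the last being the array with the low Cav1 value. Klf1 was at -0.47, Slc4a1 at -1.43, Hbb-y at -0.17 and Hba-x at -0.29. Y-linked genes were at a mean log2 level of 7.02 on control array 1 and of 2.72 to 2.99 on the other 4 arrays. The 25 tested targets of the hypoxia-inducible factors were higher without exception (median 1.12), with a shift of 1.41 and 0.87 on the knockout arrays, against -0.03, 0.03 and -0.06 on the control arrays, and Adm (1.48), Ndrg1 (2.37), Egln1 (0.85) and P4ha1 (1.12) were lowest in p. Cav3 was at 5.64 on knockout array 1, which lacked the endoderm transcripts, and at 5.92 on knockout array 2. Whether those transcripts bear on the Cav3 level was not tested.

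**Figure D4:**
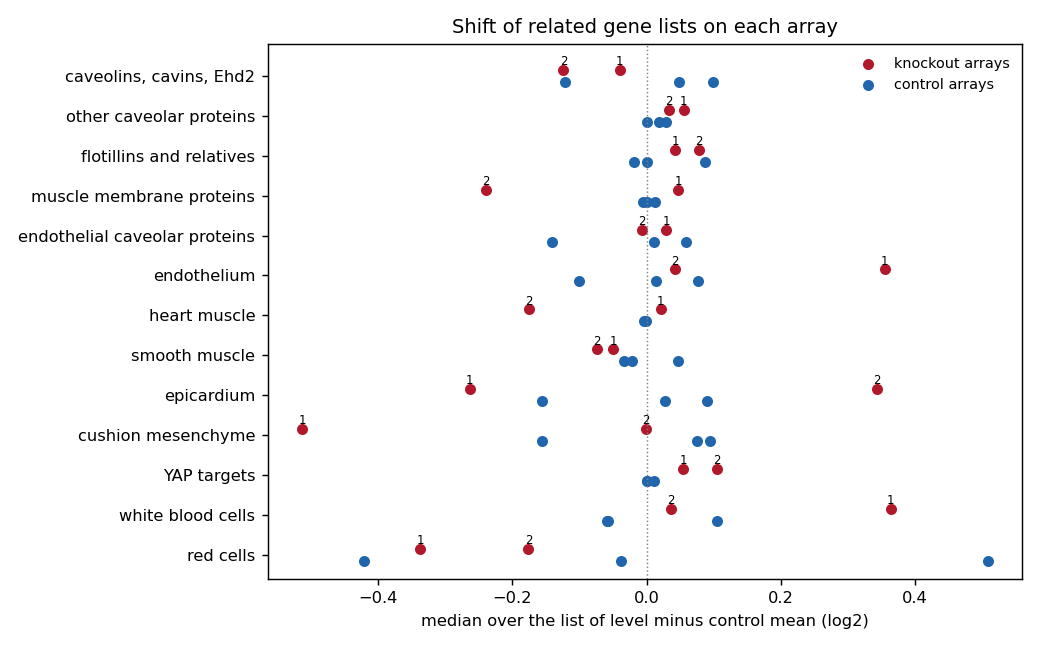
Median over each gene list of the level minus the control mean (log2), for the 2 knockout arrays (red, numbered) and the 3 control arrays (blue). The caveolar list has knockout shifts of -0.04 and -0.12 among control shifts of -0.12 to 0.10. The knockout arrays part most from each other in the epicardial, cushion, white blood cell, endothelial and muscle membrane lists. The endoderm and hypoxia lists, with far larger shifts, are not drawn.

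The genes whose profile over the 5 arrays came nearest to that of Cav3 were Txnip, Pik3r3, Strip2 and Arrdc4. Nearness was the root mean square distance between profiles centred on their own mean, and it was 0.10, 0.13, 0.13 and 0.13 on the log2 scale. Lower levels on the knockout arrays are built into this choice, so the values of these genes only describe them. Txnip, an arrestin-like protein that limits glucose uptake, had log2 levels of 6.90 and 7.44 on the knockout arrays, against 8.39, 8.32 and 7.84 on the control arrays. Its relative Arrdc4 had 4.81 and 5.01 on the knockout arrays, against 5.87, 6.02 and 5.65 on the control arrays. Pik3r3, a regulatory subunit of phosphoinositide 3-kinase, differed by -0.98 and Strip2 by -1.10 on the log2 scale. For Cav1, in a search added after its values were seen, the nearest profiles were those of H2bu2, Pcdhgb5, Zfp975 and Zfp442, at distances of 0.21 to 0.35. A low value on control array 3 is built into that choice.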

How the data were processed

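The deposited values are log2 expression levels, made by the authors with Affymetrix Expression Console and RMA, per the submitters' processing notes. RMA subtracts background, forces one distribution on every array and reduces each probe set to 1 value, which compresses the differences of dim genes. Versions, settings and build: not given in the sources used here. Per the labels' protocols, Trizol RNA was amplified with the GeneChip WT Plus kit. No raw scans were used, so background was not judged per probe, and the number of arrays limits precision. Array medians lay between 5.07 and 5.11. Exact ties between arrays touched 54.8% of the genes tested.

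Of 24479 probe sets, 23281 had 1 gene symbol, 0 several and 1198 none; the Entrez numbers of 23156 were found in a RefSeq table of GRCm38.p6, all 8 members among them. Genes with a mean below the 40th percentile were left out of the test (9312). Knockout was compared with control in limma 3.58.1 (R 4.3.3; lmFit, eBayes, two-sided, no covariate), with Benjamini-Hochberg adjustment over 13967 genes. The steps were tested on simulated data with independent normal noise. That setting has no ties and no outlying array, so it checks the steps and not the p-values of these data. The members and lists were chosen with earlier results of these data known. Genes named are the members, Lrrfip2, in each list the 4 genes lowest in p, and the 4 nearest profiles to the member with the largest difference; Pacsin2, Pacsin3, Dysf, Dmd, Nos3, Plvap and the profiles near Cav1 were chosen after their values were seen. Alternatives concerned the dim filter, prior, weights, normalization, probe sets, covariates and each array left out.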

Additional observations from a re-analysis of the deposited data

How the results depend on the processing

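No member passed the adjusted threshold in limma, apart from Ehd2 in the 2 fits named here, and of the 15 alternatives, 4 (both dim filters, the prior and the mean of probe sets) left each member's difference as it was; under the 11 that moved it, 7 of the 8 members kept their sign. Cavin4, at 0.01, turned to -0.0032 with each array centred on its median, which shifts all genes alike, and to -0.10 with the endothelial level as a covariate, and ranged from -0.12 to 0.12 as each array was left out. Ehd2 ranged from -0.55 (without knockout replicate 2) to -0.0476 (without knockout replicate 1) and was -0.54 with the endoderm level as a covariate (adjusted p = 0.0409 in limma). The endoderm level was high on knockout array 2 alone (a mean of 7.70 over 16 genes, against 4.37 to 4.50 on the others). A fit with that covariate thus comes close to leaving that array out and is not separate support. Over all genes, 0 passed an adjusted p of 0.05 but 828 did with the endoderm covariate, and 0 to 1011 as each array was left out, the most without knockout replicate 2. Genes at an unadjusted p under 0.05 numbered 1227, but 783 with array weights, 3829 with the endoderm covariate, 3725 with the cardiomyocyte level as a covariate, an alternative added after seeing the data, and 773 to 3821 as each array was left out. Genes without overlap numbered 2972, and 3766 to 8445 as each array was left out, since fewer arrays overlap less. With all arrays kept, genes without overlap numbered 4389 after quantile normalization again and 4307 with each array centred on its median. The cause of the other shifts was not tested. The adjusted p of Cav3 ranged from 0.103 to 0.757. Of 225 list medians, 181 moved by less than the spread between replicates and 44 by more. The 181 include the medians under the prior and the mean of probe sets, which stayed exactly as they were. No paired analysis was possible because the sample numbers in the labels are not shared between the groups.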
